A study of Mus musculus with 16 samples.

Results

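Tigit, Cd96, Cd226 and Crtam, whose products are receptors for nectins and nectin-like proteins, and Pdcd1, Lag3, Havcr2 and Ctla4, which encode the immune checkpoints PD-1, LAG-3, TIM-3 and CTLA-4, were followed in natural killer (NK) cells of tumour-bearing mice. The members were the rows of the count table that carry these symbols, 8 of 49671 genes, and all 8 passed the filter on low counts. RNA was counted in 16 libraries in 4 groups of 4, namely LN DT, LN PBS, lung DT and lung PBS. NK cells were sorted as live CD45+ CD3- NKp46+ DX5+ cells, 5000 to 10000 for each library, taken from axillary lymph nodes (LN) that drain the tumour or from the lungs. All mice were of FVB/N background with the genotype label Cdh1F/F;Trp53F/F;Foxp3GFP-DTR and carried an orthotopically transplanted KEP mammary tumour of 100 mm2. The PBS mice therefore also carried the diphtheria toxin (DT) receptor, which the Foxp3 allele places in Foxp3-expressing cells such as regulatory T cells. DT mice were given 25 ug DT at T = 0 and T = 7, and PBS mice were given PBS at the same times, in a unit of time that the labels leave out. The labels name no Cre and no age.

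TIGIT, CD96 and CD226 share the ligand PVR (CD155), a nectin-like protein of stressed and tumour cells. CD226 is the activating receptor of this trio, TIGIT carries an inhibitory tyrosine motif, and CD96 restrains interferon gamma production in mouse NK cells. CRTAM binds the nectin-like protein CADM1 and appears on activated cytotoxic lymphocytes. PD-1, LAG-3, TIM-3 and CTLA-4 are inhibitory receptors best known from exhausted or regulatory T cells, and each has also been described on subsets of NK cells.

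Tigit and Cd96 lie on the same strand of chromosome 16 of GRCm38. Tigit (ENSMUSG00000071552) spans chr16:43648861-43664184 and Cd96 (ENSMUSG00000022657) spans chr16:46035657-46120251. Their upstream sequences are shown because these genes encode inhibitory receptors of a single ligand and the ratio between their RNA levels separated DT from PBS libraries in both tissues, as described below. The windows are the 250 bases before the RefSeq start of each gene on GRCm38.p6, on the minus strand, at chr16:43664185-43664434 for Tigit and chr16:46120249-46120498 for Cd96. Capitals mark matches, on either strand, to the T-box motif TCACAC, the RUNX motif TGTGGT, the AP-1 motif TGANTCA, the NFAT core GGAAA, the TCF/LEF motif CTTTGA and the STAT motif TTCNNNGAA.
Tigit: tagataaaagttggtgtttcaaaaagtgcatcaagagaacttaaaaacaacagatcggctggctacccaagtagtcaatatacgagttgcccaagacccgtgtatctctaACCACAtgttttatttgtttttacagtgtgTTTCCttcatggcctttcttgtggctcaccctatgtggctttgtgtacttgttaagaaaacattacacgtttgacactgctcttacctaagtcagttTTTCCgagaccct
Cd96: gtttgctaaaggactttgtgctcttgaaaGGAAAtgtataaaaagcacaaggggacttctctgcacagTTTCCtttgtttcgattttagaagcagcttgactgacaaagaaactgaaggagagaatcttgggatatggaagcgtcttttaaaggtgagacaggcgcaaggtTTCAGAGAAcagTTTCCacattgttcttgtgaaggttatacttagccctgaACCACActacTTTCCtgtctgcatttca
Both windows held a RUNX match, 140 bases before the start in Tigit and 28 in Cd96, and RUNX matches stood in 14% of 32851 such mouse windows. The Tigit window held 2 matches to the NFAT core and the Cd96 window 4, and this core stood in 55.6% of the windows. A STAT match stood 79 bases before the start of Cd96, and 7.02% of the windows held one. No T-box, AP-1 or TCF/LEF letters were in either window, against 12.3%, 6.75% and 13.8% of all windows, and a match or its lack is a description of letters only.

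Levels are given as CPM, the usual count unit scaled to library size, here with TMM scaling. Total counts per library ran from 3929560 to 10744934, and 13940 genes were tested. Ncr1, which encodes NKp46 of the sort gate, stood between 2457 and 7917 CPM in every library. The mitochondrial share of counts was 1.24 to 4.93% in LN DT, against 1.05 to 1.68% in LN PBS, and 3.11 to 4.40% in lung DT, against 0.951 to 2.57% in lung PBS (exact two-sided permutation p = 0.114 and 0.0286). LN DT and lung DT libraries that bear the same replicate number deviated together from their group means over all tested genes, and both libraries numbered 1 had the highest Malat1, at 18216 and 17164 CPM, against at most 8511 in any other library.

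Per kilobase of exon, the scale on which levels of different genes can be set side by side, the nectin-binding receptors stood above the checkpoints in the mean over all 16 libraries. That mean was 172 CPM per kb for Tigit, 89.5 for Cd96, 25.4 for Crtam and 19.3 for Cd226. It was 6.43 for Lag3, 4.53 for Ctla4, 4.09 for Havcr2 and 1.24 for Pdcd1. The order did not hold in lung DT, where Havcr2 averaged 11.9 CPM per kb and Crtam 7.44. In LN DT libraries Tigit averaged 261 ± 187 CPM per kb and Cd96 93.9 ± 42.1, against 71.9 ± 24.7 and 131 ± 36.8 in LN PBS libraries (SD, n = 4). Pdcd1 had 0 counts in 6 of 16 libraries and at most 74 in any, Havcr2 had 0 in 3, and Ctla4 had 0 in 1. A count of 0 allows up to 3 counts, which is at most 0.513 CPM in the libraries with no Pdcd1, and such limits cover counting error only.

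**Figure D1:**
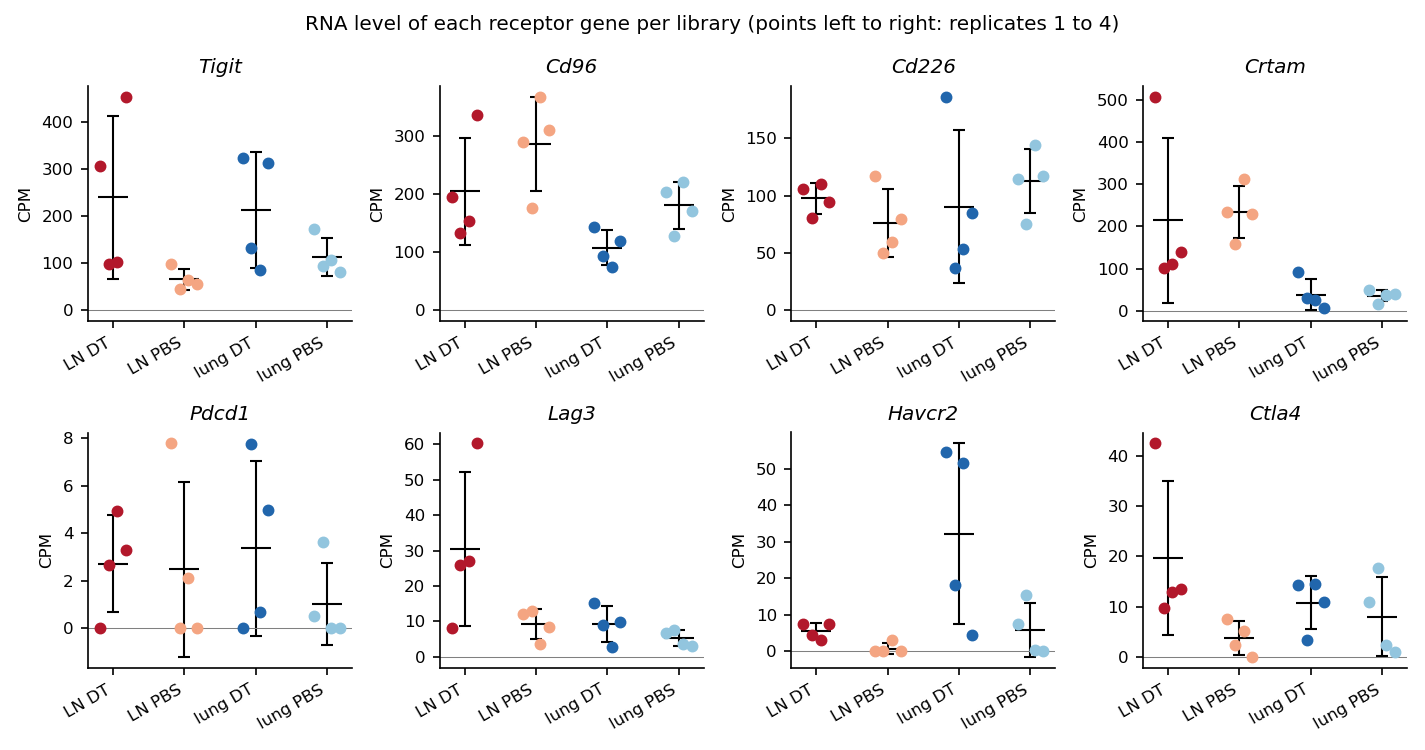
RNA level in CPM of the 8 genes in each library (points, replicates 1 to 4 from left to right in each group) with the group mean and SD (bars). Crtam lay at 100.1 to 508 CPM in the LN libraries and at 5.24 to 92.1 CPM in the lung libraries, and Tigit reached 453 CPM in LN DT and 324 CPM in lung DT.

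What DT changed in NK cells of the LN was asked first. Of the nectin-binding receptors, Tigit, which encodes an inhibitory receptor, had the largest fitted change. It stood at 306, 98.2, 102 and 453 CPM in LN DT replicates 1 to 4, against 97.9, 45.2, 64.6 and 56.6 CPM in LN PBS. Every LN DT library lay above every LN PBS library, but replicates 2 and 3 did so by little, and replicates 1 and 4 carried most of the difference. The fitted log2 fold change was 1.86 ± 0.51 (SE, n = 4), or 3.63-fold, with an adjusted p of 0.181 in edgeR's quasi-likelihood test. DESeq2 called it (1.85, adjusted p = 0.0259, within 0.0259 to 0.487 over all alternatives).

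Cd96 went the other way in LN without passing the test. It had 195, 134, 154 and 337 CPM in LN DT, against 291, 177, 369 and 312 CPM in LN PBS, a log2 fold change of -0.48 ± 0.32 (adjusted p = 0.581). The groups overlapped, and LN DT replicate 4, the library with the highest Tigit, also had the highest Cd96 of its group. Cd226 (ENSMUSG00000034028, chr18:89197431-89270201), the activating counterpart, stood at 106, 80.4, 111 and 94.5 CPM in LN DT, against 117, 50.3, 59.5 and 79.3 CPM in LN PBS (0.35 ± 0.40, adjusted p = 0.775), and the groups overlapped.

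Crtam (ENSMUSG00000032021, chr9:40969691-41004628) had close means in the LN groups, and these rest on 1 library. LN DT replicate 1 had 508 CPM and the others 100.1, 110.1 and 139 CPM, against 235, 159, 313 and 230.4 CPM in LN PBS, so that replicates 2, 3 and 4 of LN DT lay below every LN PBS library and replicate 1 above them all. The log2 fold change was -0.13 ± 0.63 (adjusted p = 0.963). Without LN DT replicate 1 it was -1.06, which was not called.

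The checkpoint genes had higher means in LN DT, and none passed the test. They rest on 1018 counts of Lag3 and 551 of Ctla4 over the 4 LN DT libraries, and on fewer of Havcr2 and Pdcd1. Lag3 (ENSMUSG00000030124, chr6:124904361-124911705), whose product binds MHC class II, had 8.22, 25.9, 27.2 and 60.3 CPM in LN DT, against 12, 12.8, 3.72 and 8.48 CPM in LN PBS (1.71 ± 0.62, adjusted p = 0.282). LN DT replicate 1 was the only LN DT library within the LN PBS range, and without LN DT replicate 4 the estimate was 1.14. Ctla4 (ENSMUSG00000026011, chr1:60887000-60915832), which encodes a competitor of CD28 for CD80 and CD86, stood at 42.5, 9.77, 12.9 and 13.4 CPM in LN DT, against 7.57, 2.30, 5.20 and 0 CPM in LN PBS (2.37 ± 1.02, adjusted p = 0.373). The groups did not overlap, LN DT replicate 1 stood far above the rest, and without it the estimate was 1.62.

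Havcr2 (ENSMUSG00000020399, chr11:46454935-46481255) had 7.54, 4.49, 3.01 and 7.37 CPM in LN DT, against 0, 0.121, 2.97 and 0 CPM in LN PBS. These are 170 counts in the LN DT libraries together and 25 in LN PBS, of which 24 were in replicate 3, and the groups were apart only by the margin between 3.01 and 2.97 CPM (2.85 ± 1.42, adjusted p = 0.445). With 1 library left out the estimate ran from 2.43 to 6.70, the highest without LN PBS replicate 3, and it was never called. Pdcd1 (ENSMUSG00000026285, chr1:94038305-94052553) had 0, 2.64, 4.93 and 3.30 CPM in LN DT, against 7.78, 0, 2.11 and 0 CPM in LN PBS, with 91 counts in each group (0.14 ± 1.71, adjusted p = 0.987). Nothing about a direction can be read from Pdcd1 at this depth.

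In the LN comparison edgeR called 0 of the 8 genes, where 0.0646% of all tested genes were called higher and 0% lower. At an unadjusted p under 0.05 there were 3 higher, Tigit, Lag3 and Ctla4, where 8.29% of all genes were higher and 3.52% lower. DESeq2 called 1 of the 8, Tigit, but it called 350 genes in all, 279 higher and 71 lower, where edgeR called 9. The libraries did not overlap for 3 higher genes, Tigit, Havcr2 and Ctla4, where 5.05% of all genes stood apart higher and 3.42% lower. The median log2 fold change of the 8 genes was 1.03, with 6 above 0, against a median of 0.08 over all tested genes, of which 54.6% lay above 0. Leaving out single libraries gave Tigit estimates from 1.35, without LN DT replicate 4, to 2.12, without LN DT replicate 2, none of them called.

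Markers of T cells were read beside these genes, since T cells transcribe all 8. The 12 genes of the T cell list summed to 1425 to 3588 CPM in LN DT, against 1385 to 1793 CPM in LN PBS (exact two-sided permutation p = 0.286, adjusted 0.447 over 36 tests), and most of the sum was Trbc1, which stood at 1514 CPM in LN DT and 964 CPM in LN PBS. The rest of the list was lower and uneven. Cd3d averaged 148 CPM in LN DT and 126 CPM in LN PBS, Cd3g 138 CPM in LN DT and 209.8 CPM in LN PBS, and Trbc2 221 CPM in LN DT and 191 CPM in LN PBS. Cd4 averaged 17.2 CPM in LN DT and 3.59 CPM in LN PBS, Cd8b1 averaged 3.97 CPM in LN DT and 0.645 CPM in LN PBS, and Cd3e averaged 12.8 CPM in LN DT and 18.9 CPM in LN PBS. Trac averaged 25.1 CPM in LN DT and 26.4 CPM in LN PBS (adjusted p = 0.983). A sum that is mostly Trbc1 does not by itself measure T cell content. From 0 to 2 of the 12 genes had no count in an LN library. The T cell sum was highest in LN DT replicate 1, the library with the highest Ctla4 and Crtam, and was lowest among LN DT libraries in replicate 4, the library with the highest Tigit and Lag3. Foxp3 was at most 1.19 CPM in any library. Transcripts of several other cells were also higher in mean in LN DT, though not those of the neutrophil list, with mean sums of 2.37 CPM in LN DT and 3.87 CPM in LN PBS. The plasma cell list summed to 409 to 669 CPM in LN DT, against 245 to 320 CPM in LN PBS, with no overlap, and Jchain, which encodes the joining chain of secreted antibodies, rose to 201 CPM in LN DT, against 0.0613 CPM in LN PBS (adjusted p = 0.0244). The B cell list summed to 239 to 1372 CPM in LN DT, against 139 to 259 CPM in LN PBS. The dendritic cell list summed to 50.5 to 287 CPM in LN DT, against 29.9 to 55.6 CPM in LN PBS, with Siglech, a marker of plasmacytoid dendritic cells, at 69.8 CPM in LN DT and 1.71 CPM in LN PBS (adjusted p = 0.261). The regulatory T cell list summed to 313 to 634 CPM in LN DT, against 319 to 358 CPM in LN PBS, with Il2ra at 37.0 CPM in LN DT and 7.84 CPM in LN PBS (adjusted p = 0.108). The B cell, plasma cell and dendritic cell sums were highest in LN DT replicates 2 and 3, while Tigit was highest in replicates 4 and 1. Over 9 marker lists and 4 comparisons, 13 of 36 exact tests gave the smallest p that 4 against 4 libraries allow (0.0286, adjusted 0.0791), so that none could pass after adjustment, and this says nothing about the absence of other cells. The part of RNA from T cells and these other cells in the values of the 8 genes was not tested. In such sorted pools, more cells with a transcript and more transcript per cell cannot be told apart.

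**Figure D2:**
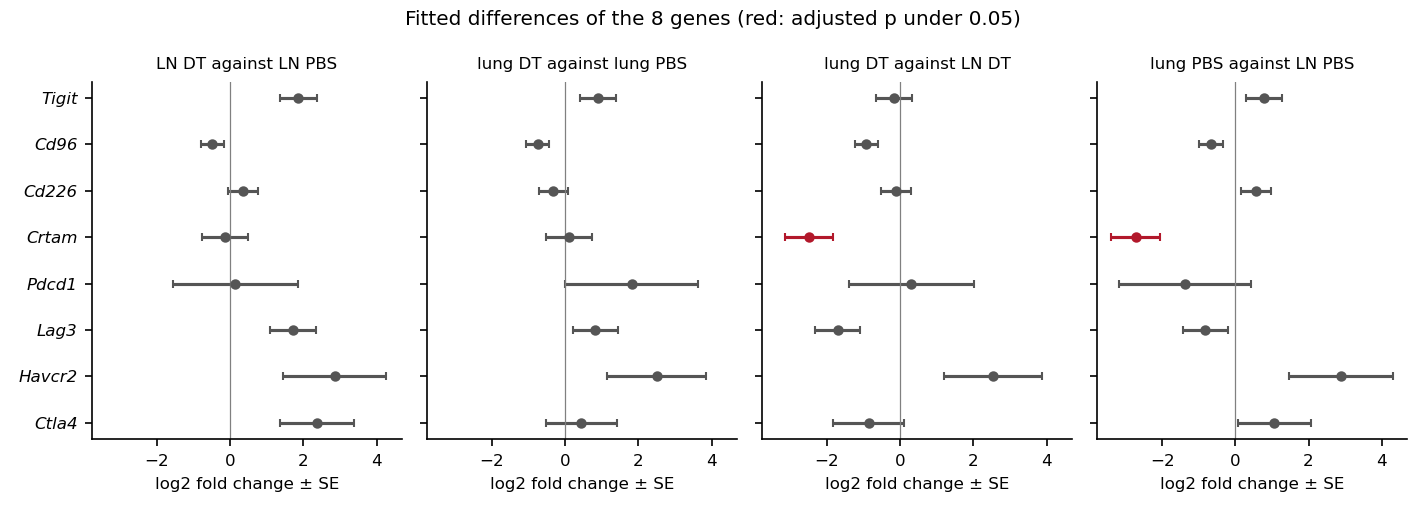
Log2 fold changes with SE of the 8 genes in 4 comparisons, red where the adjusted p is under 0.05. Crtam is the only red point, at -2.49 for lung DT against LN DT and at -2.72 for lung PBS against LN PBS, and the bars of Pdcd1 and Havcr2 are the widest.

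The lung comparison asked what DT changes at a site distant from the tumour. Tigit stood at 324, 132, 84.6 and 312 CPM in lung DT, against 172, 94.1, 108 and 80.9 CPM in lung PBS. The groups overlapped, with replicates 1 and 4 of lung DT above all others, as replicates 1 and 4 were in LN DT. The log2 fold change was 0.90 ± 0.50 (SE, n = 4; adjusted p = 0.405). Cd96 had 143, 93.2, 74.8 and 120.2 CPM in lung DT, against 204, 129, 221 and 171 CPM in lung PBS, a log2 fold change of -0.75 ± 0.32 (adjusted p = 0.293). Only lung PBS replicate 2, the shallowest library, reached into the lung DT range. Of 12 NK marker genes, Ncr1 among them, 10 also lay below 0 in this comparison, with a median of -0.56 and 0 called.

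Cd226 spread widely in lung DT, with 186, 37.1, 53.7 and 84.6 CPM, against 115, 75.5, 144 and 117 CPM in lung PBS (-0.32 ± 0.40, adjusted p = 0.736). Crtam had 92.1, 31.1, 24.2 and 5.24 CPM in lung DT, against 48.5, 16.7, 36.3 and 40.5 CPM in lung PBS (0.10 ± 0.63, adjusted p = 0.957). For both genes lung DT replicate 1 was the highest of all lung libraries. Without it the log2 fold changes were -0.99 for Cd226 and -0.88 for Crtam, neither called.

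Among the checkpoints Havcr2 had the largest change in mean in lung. It stood at 54.7, 18.2, 51.6 and 4.58 CPM in lung DT, against 7.55, 15.5, 0.242 and 0 CPM in lung PBS (2.49 ± 1.34, adjusted p = 0.398). The 6 genes of the macrophage and monocyte list summed to 1322, 3784, 3438 and 138 CPM in the same lung DT libraries and to 568, 2537, 295 and 397 CPM in lung PBS. The lung DT library with the least of these transcripts, replicate 4, had the lowest Havcr2 of its group, and lung PBS replicate 2 had the most of them and the highest Havcr2 of its group. The order differed elsewhere, since lung DT replicate 2 had the highest sum with 18.2 CPM of Havcr2 and replicate 1 the highest Havcr2 with a sum of 1322 CPM. All 6 genes had counts in every lung library except replicate 4 of each group, where 2 were at 0 in lung DT and 1 in lung PBS. The dendritic cell list summed to 71.4 to 85.4 CPM in lung DT, against 40.3 to 66.8 CPM in lung PBS. Macrophages and dendritic cells transcribe Havcr2, and the part of their RNA in its values was not tested.

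Lag3 had 15.4, 9.02, 2.91 and 9.82 CPM in lung DT, against 6.85, 7.49, 3.75 and 2.98 CPM in lung PBS (0.82 ± 0.62, adjusted p = 0.555). Ctla4 had 14.3, 3.38, 14.5 and 10.9 CPM in lung DT, against 10.9, 17.8, 2.42 and 0.993 CPM in lung PBS (0.44 ± 0.98, adjusted p = 0.862). Pdcd1 had 0, 7.76, 0.692 and 4.98 CPM in lung DT, against 0.496, 3.61, 0 and 0 CPM in lung PBS (1.81 ± 1.81, adjusted p = 0.666). With 1 library left out the Pdcd1 estimate ran from 0.99 to 4.10, the Ctla4 estimate from 0.056 to 1.09 and the Lag3 estimate from 0.42 to 1.11. All of these groups overlapped. The T cell list summed to 1020 to 1809 CPM in lung DT, against 837 to 1357 CPM in lung PBS (exact two-sided permutation p = 0.486). Of its 11 tested genes 10 lay above 0, beside 54.5% of all tested genes, with 0 called. Cd3d averaged 48.9 CPM in lung DT and 12.3 CPM in lung PBS, and Cd3g 78.8 and 26.1 CPM. Lung DT replicate 1 had the highest T cell sum of its group, and the highest of each member but Pdcd1 and Ctla4. The part of T cells was not tested.

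In lung edgeR called 0 of the 8 genes, where 0.0574% of all genes were called higher and 0.0502% lower. DESeq2 also called 0 of the 8, and 531 genes in all. At an unadjusted p under 0.05 there was 1, Cd96, where 7.66% of all genes were higher and 7.06% lower. Every pair of groups overlapped for the 8 genes, where 3.35% of all genes stood apart higher and 4.53% lower. The median log2 fold change of the 8 genes in lung was 0.63, with 6 above 0, against 0.09 over all tested genes, of which 54.5% lay above 0. The difference between the DT effects in LN and lung was called for 0 of the 8 genes, where 0.00717% of all genes were, for 0 at an unadjusted p under 0.05, where 2.88% of all genes were higher and 1.33% lower (4.2% in all), and for 0 by DESeq2. It was largest for Ctla4 (1.93 ± 1.39) and Pdcd1 (-1.67 ± 2.47), with an adjusted p of 1.00 for all 8.

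**Figure D3:**
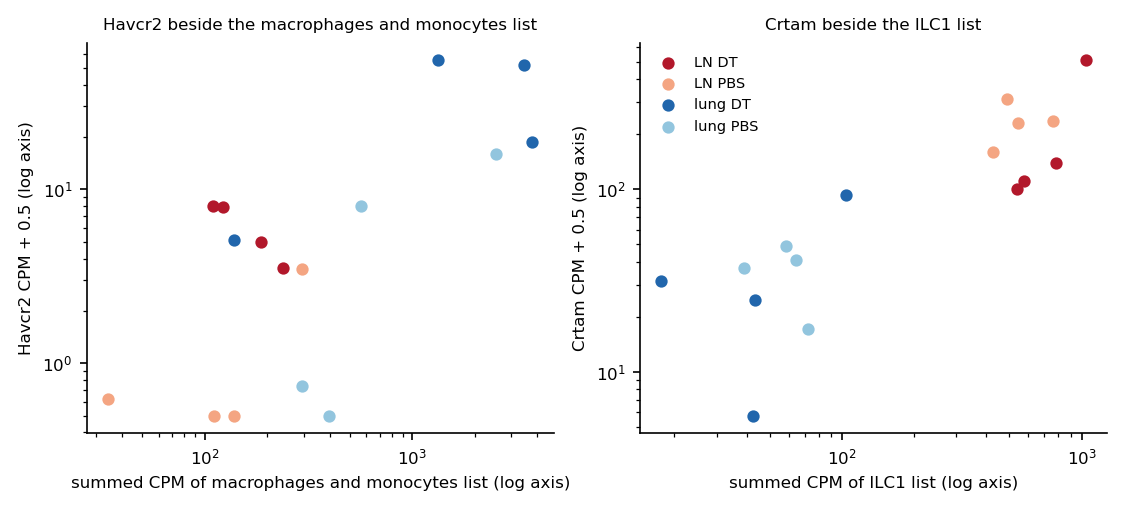
Left, Havcr2 CPM + 0.5 against the summed CPM of 6 macrophage and monocyte genes, and right, Crtam CPM + 0.5 against the summed CPM of 6 ILC1 genes, each point a library and all axes logarithmic. Lung DT replicate 4 sits at 138 CPM of macrophage genes and 4.58 CPM of Havcr2, and the LN libraries sit at 425 CPM of ILC1 genes or more.

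Ratios between the receptors of PVR do not depend on how a library is scaled, and they are given without a test. The ratio of Tigit to Cd96 CPM was 1.57, 0.734, 0.661 and 1.34 in LN DT, against 0.337, 0.255, 0.175 and 0.181 in LN PBS. In lung it was 2.26, 1.41, 1.13 and 2.59 in lung DT, against 0.841, 0.729, 0.487 and 0.474 in lung PBS. In each tissue every DT library lay above every PBS library, and this ratio was also higher in every lung PBS than in every LN PBS library. The share of all gene pairs whose ratio stands apart in this way was not counted, so it cannot be said whether the separation is unusual.

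The ratio of Tigit to Cd226 was 2.9, 1.22, 0.919 and 4.79 in LN DT, against 0.837, 0.899, 1.09 and 0.713 in LN PBS, with 1 LN DT library inside the PBS range. It was 1.74, 3.55, 1.57 and 3.68 in lung DT, against 1.5, 1.25, 0.749 and 0.690 in lung PBS, with no overlap. The ratio of Cd96 to Cd226 ran from 1.39 to 3.57 in LN DT, against 2.49 to 6.20 in LN PBS, and from 0.770 to 2.51 in lung DT, against 1.46 to 1.78 in lung PBS, with overlap in both tissues. Within LN DT and within lung DT, Tigit and Cd96 ranked the 4 libraries in the same order, from replicate 4 through 1 and 3 to 2 in LN and from replicate 1 through 4 and 2 to 3 in lung. The lung DT order was not particular to this pair, since Lag3, Ncr1 and the summed CPM of the 12 NK marker genes had it too. In LN DT these had other orders.

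**Figure D4:**
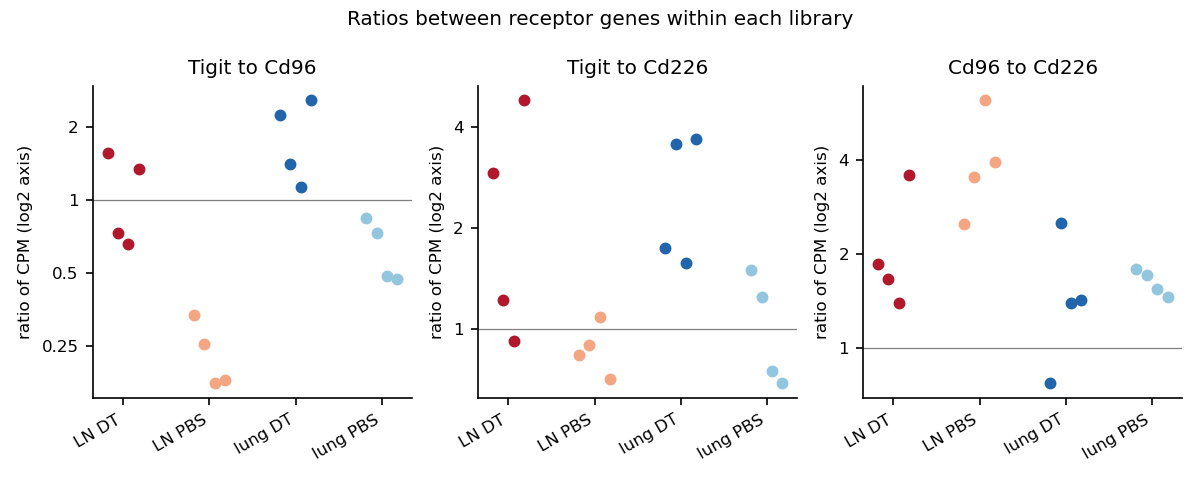
Ratio of CPM between receptor genes of PVR in each library (points) on a log2 axis. For Tigit to Cd96 the DT libraries lie at 0.661 to 1.57 in LN and 1.13 to 2.59 in lung, above the PBS libraries at 0.175 to 0.337 and 0.474 to 0.841.

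The tissues were compared within each treatment, where tissue cannot be told apart from the digestion of the lungs, and Crtam was the only member called. It averaged 35.5 ± 13.5 CPM in lung PBS and 234 ± 62.9 CPM in LN PBS (SD, n = 4), and every lung PBS library, at 16.7 to 48.5 CPM, lay below every LN PBS library, at 159 to 313 CPM. The log2 fold change was -2.72 ± 0.67 (SE; adjusted p = 0.0291), so that lung PBS was 6.57-fold lower. With DT, Crtam averaged 38.2 ± 37.6 CPM in lung DT and 214 ± 197 CPM in LN DT, with -2.49 ± 0.66 (adjusted p = 0.0312), or 5.62-fold lower, and again no overlap, the closest libraries being at 92.1 and 100.1 CPM.

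Crtam stayed lower in lung under every alternative tried in both comparisons, but the calls did not hold under all of them. The log2 fold change ran from -2.90 to -2.46 over the alternatives in PBS mice and from -3.38 to -1.60 in DT mice. For PBS mice the call was lost without LN PBS replicate 1, 3 or 4 or without any 1 of the 4 lung PBS libraries (adjusted p 0.0573 to 0.0972), and with no gene filter (0.0897). For DT mice it was lost without LN DT replicate 1, where the log2 fold change was -1.60 (adjusted p = 0.117), without lung DT replicate 2 (0.075) or 3 (0.0784), with no gene filter (0.0822) and with only the groups compared in the fit (0.177).

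Crtam was the 1 of 8 called lower in lung PBS, where 0.904% of all genes were called lower and 2.70% higher, and the 1 of 8 called lower in lung DT, where 2.78% were lower and 3.97% higher. At an unadjusted p under 0.05 Crtam was the 1 of 8 in PBS mice, where 10.3% of all genes were higher and 6.54% lower (16.9% in all), and Crtam, Cd96 and Lag3 were lower in DT mice, where 10.8% were higher and 10.1% lower (20.9% in all). Crtam was also the 1 member whose groups did not overlap, where 9.25% of all genes stood apart higher and 9.91% lower in PBS mice, and 5.57% higher and 6.08% lower in DT mice. The 6 genes of the list of type 1 innate lymphoid cells (ILC1) summed to 39.2 to 72.2 CPM in lung PBS, against 425 to 757 CPM in LN PBS, and to 17.7 to 104 CPM in lung DT, against 538 to 1041 CPM in LN DT (exact two-sided permutation p = 0.0286 for both, the smallest that 4 against 4 libraries can give, adjusted 0.0791). Most of that sum was Il7r and Cxcr6, with 403 and 110 CPM in LN PBS, while Itga1 and Zfp683 stood at 0.533 and 0.0310 CPM there. The T cell list summed to 837 to 1357 CPM in lung PBS, against 1385 to 1793 CPM in LN PBS (exact p = 0.0286, adjusted 0.0791), and to 1020 to 1809 CPM in lung DT, against 1425 to 3588 CPM in LN DT, where the groups overlapped (exact p = 0.0857, adjusted 0.171). Most of the T cell sum was again Trbc1, at 880 CPM in lung PBS and 964 CPM in LN PBS. Trac averaged 10.1 CPM in lung PBS and 26.4 CPM in LN PBS (adjusted p = 0.329). Of the 11 T cell genes tested, 9 lay lower in lung PBS and 2 higher, and 2 were called lower. These were Cd3d, at 12.3 CPM in lung PBS and 126 CPM in LN PBS (-3.36, adjusted p = 0.00436), and Cd3g, at 26.1 and 209.8 CPM (-3.01, adjusted p = 0.00437). In lung DT all 11 lay lower than in LN DT, and Trbc2 was called. The part of ILC1 and T cells in the Crtam difference was not tested.

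Cd96 averaged 108 ± 30.1 CPM in lung DT and 205 ± 91.9 CPM in LN DT, a log2 fold change of -0.93 ± 0.32 (adjusted p = 0.0905). With the replicate number as a block within a treatment, a pairing read from the data and not the labels, it was called (-0.87, adjusted p = 0.0172). With that block 1421 genes were called in this comparison, against 941 without it. Ncr1 of the sort gate was also lower in lung DT than in LN DT (-0.89, adjusted p = 0.0381). Of the 12 NK marker genes, 10 lay below 0 there, with a median of -0.09. Whether the Cd96 difference goes beyond that of NK transcripts in general was not tested. In PBS mice it averaged 181 ± 40.7 CPM in lung PBS and 287 ± 80.4 CPM in LN PBS (-0.66 ± 0.32, adjusted p = 0.301). Lag3 averaged 9.27 ± 5.09 CPM in lung DT and 30.4 ± 21.7 CPM in LN DT (-1.71 ± 0.62, adjusted p = 0.113), and it was called without both DT libraries numbered 1 (-2.40, adjusted p = 0.0207) and by DESeq2 (-1.64, adjusted p = 0.0472). Those settings also called more genes in all, 1390 and 1976, against 941. In PBS mice Lag3 averaged 5.27 ± 2.24 CPM in lung PBS and 9.26 ± 4.15 CPM in LN PBS (-0.82 ± 0.62, adjusted p = 0.581).

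Tigit had 114 ± 40.3 CPM in lung PBS and 66.1 ± 22.7 CPM in LN PBS (0.78 ± 0.50, adjusted p = 0.478), and 213 ± 123 CPM in lung DT and 239.8 ± 172 CPM in LN DT (-0.17 ± 0.49, adjusted p = 0.895). Cd226 did not pass in either comparison (0.56 ± 0.40, adjusted p = 0.546, and -0.11 ± 0.40, adjusted p = 0.918). Havcr2 had 5.83 ± 7.36 CPM in lung PBS and 0.774 ± 1.47 in LN PBS (adjusted p = 0.322), and 32.3 ± 24.8 CPM in lung DT and 5.60 ± 2.23 in LN DT (adjusted p = 0.307). The macrophage and monocyte list stood at 295 to 2537 CPM in lung PBS, against 34.3 to 294 CPM in LN PBS, and at 138 to 3784 CPM in lung DT, against 109 to 237 CPM in LN DT, where the groups overlapped (exact two-sided permutation p = 0.0286 and 0.0857). Ctla4 and Pdcd1 did not pass between tissues (adjusted p 0.674 to 0.953).

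By order of group means, Tigit ran LN DT, lung DT, lung PBS and LN PBS from high to low, and Cd96 ran LN PBS, LN DT, lung PBS and lung DT. Cd226 ran lung PBS, LN DT, lung DT and LN PBS, with each neighbour within the larger SD of the pair. Crtam had both LN groups above both lung groups, and within a tissue its groups did not differ beyond their spread. Lag3 and Ctla4 were highest in LN DT, and Havcr2 was highest in lung DT.

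The ligands of these receptors were read in the same libraries, where 11 of 16 listed genes could be tested. Pvr, the shared ligand of TIGIT, CD96 and CD226, was the only one of these 11 called in the comparisons below. It rose in lung PBS to 67.2 ± 12.2 CPM, against 13.8 ± 4.40 CPM in LN PBS (SD, n = 4; log2 fold change 2.28 ± 0.32, SE; adjusted p = 4.22e-04), and in lung DT to 108 ± 28.7 CPM, against 34.0 ± 10.2 CPM in LN DT (1.67 ± 0.31, adjusted p = 0.00422). No lung library overlapped an LN library of its treatment. With DT it stood at 42.5, 42.6, 27.9 and 22.8 CPM in LN DT, against 8.41, 18.9, 15.2 and 12.8 CPM in LN PBS, apart in every library but not called (1.29 ± 0.31, adjusted p = 0.139). In lung it stood at 75.0 to 139 CPM in lung DT, against 59.9 to 85.4 CPM in lung PBS (0.68 ± 0.30, adjusted p = 0.312). Macrophages also transcribe Pvr, and their part in its level was not tested.

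Nectin1, Nectin2, Nectin3 and Nectin4 were too low to test, with group means of at most 0.892 CPM, and Cadm1, the ligand of CRTAM, averaged 4.62 CPM in LN DT, 2.13 in LN PBS, 5.85 in lung DT and 9.24 in lung PBS. Cd274, which encodes PD-L1, had 53.6 to 69.7 CPM in LN DT, against 31.3 to 44.9 CPM in LN PBS (0.69 ± 0.39, adjusted p = 0.517), and 28.4 to 151 CPM in lung DT, against 29.7 to 65.5 CPM in lung PBS (1.11 ± 0.39, adjusted p = 0.22). Its 3 highest lung DT libraries lay above all lung PBS libraries. Pdcd1lg2, which encodes PD-L2, had 24.8 ± 2.96 CPM in LN DT and 12.3 ± 2.30 CPM in LN PBS (adjusted p = 0.519), and 13.8 ± 12.1 CPM in lung DT and 5.07 ± 3.95 CPM in lung PBS (adjusted p = 0.28).

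Lgals9, which encodes galectin-9, a ligand of TIM-3, went down in mean in both tissues without passing. It averaged 187 ± 112 CPM in LN DT and 397 ± 97.6 CPM in LN PBS (-1.09 ± 0.41, adjusted p = 0.304), and 188 ± 80.7 CPM in lung DT and 376 ± 74.2 CPM in lung PBS (-1.0 ± 0.41, adjusted p = 0.277). Icosl, whose product binds ICOS, which is not among the 8 genes, stood in the list as well, at 17.2 ± 9.79 CPM in LN DT and 6.32 ± 2.48 CPM in LN PBS (adjusted p = 0.496). Of the 11 ligands tested, Icosl included, 0 were called with DT in LN, where 8 lay above 0, and 0 in lung, where 9 did, beside 54.6% and 54.5% of all tested genes above 0.

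**Figure D5:**
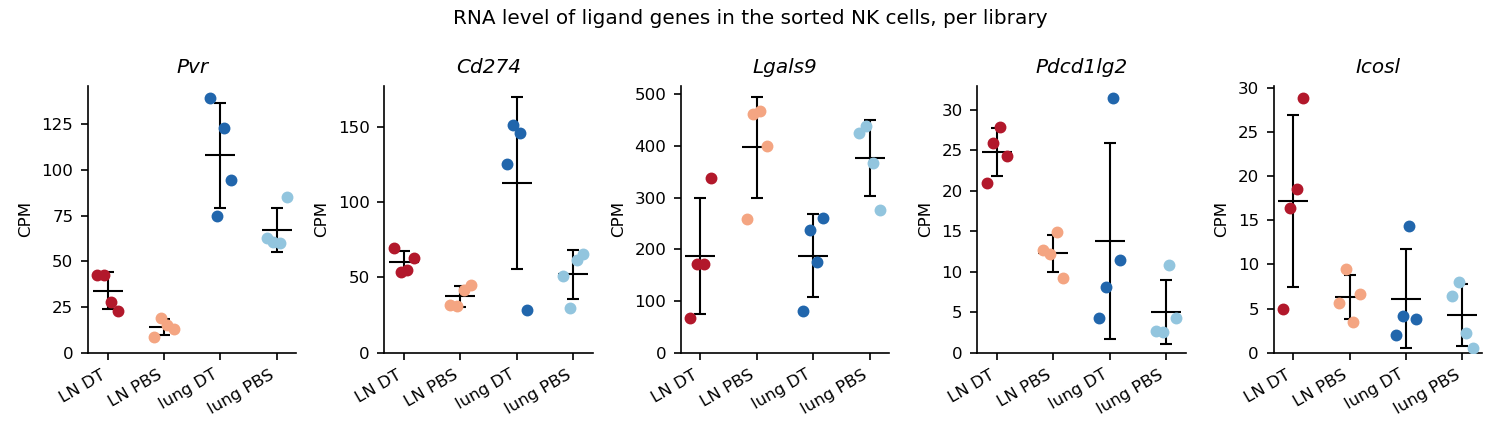
RNA level in CPM of 5 ligand genes in each library (points) with group mean and SD (bars). Pvr lies at 75.0 to 139 CPM in lung DT and 59.9 to 85.4 CPM in lung PBS, above LN DT at 22.8 to 42.6 CPM and LN PBS at 8.41 to 18.9 CPM.

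All 18 genes listed as other inhibitory receptors, the ectonucleotidase genes Entpd1 and Nt5e among them, were tested. With DT 1 was called higher in LN and 1 in lung. Lilrb4a, an immunoglobulin-family receptor, was that gene in both, at 2.63 ± 0.41 (adjusted p = 0.0131) and 2.21 ± 0.40 (adjusted p = 0.0342). After it, the smallest p in LN belonged to Klrg1 (1.11, adjusted p = 0.177) and Entpd1 (1.33, adjusted p = 0.185), and in lung to Siglecg (4.07, adjusted p = 0.231) and Lair1 (0.87, adjusted p = 0.235). Between tissues Klrg1, a lectin-like receptor that binds cadherins, was higher in lung PBS at 1068 ± 101 CPM, against 179 ± 47.4 CPM in LN PBS (2.57, adjusted p = 1.13e-04), and in lung DT (1.28, adjusted p = 0.0167). Lair1, a collagen receptor, was higher in lung PBS (1.27, adjusted p = 0.0346) and lung DT (1.51, adjusted p = 0.00923), and Entpd1, the ectonucleotidase CD39, in lung PBS (2.75, adjusted p = 4.32e-04). Siglece, a sialic acid receptor, was higher in lung DT at 6.54 ± 7.41 CPM, against 0.0631 ± 0.0730 CPM in LN DT (adjusted p = 0.0312). Cd160, a receptor of HVEM, was lower in lung PBS at 76.3 ± 20.1 CPM, against 285 ± 22.3 CPM in LN PBS (-1.90, adjusted p = 3.20e-04), and in lung DT (-2.39, adjusted p = 2.93e-05), the same direction as Crtam.

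Of 15 other activating or costimulatory receptors 0 were called with DT in LN and 0 in lung. The smallest p belonged to Tnfrsf4 (2.42, adjusted p = 0.268), Tnfrsf9 (0.67, adjusted p = 0.294) and Cd27 (-0.55, adjusted p = 0.414) in LN and to Tnfrsf18 (-0.57, adjusted p = 0.298), Ncr1 (-0.50, adjusted p = 0.353) and Slamf7 (-0.46, adjusted p = 0.404) in lung. In lung PBS 2 were called lower than in LN PBS, Slamf6 (-2.82, adjusted p = 6.48e-05) and Cd27 (-1.83, adjusted p = 5.06e-04). In lung DT 5 were called lower than in LN DT, namely Slamf6 (-2.70, adjusted p = 8.80e-05), Cd27 (-1.34, adjusted p = 0.00519), the TNF receptor genes Tnfrsf4 (-3.78, adjusted p = 0.0179) and Tnfrsf18 (-0.99, adjusted p = 0.0194), and Ncr1 (-0.89, adjusted p = 0.0381). Ncr1 is also a gene of the sort gate.

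Transcription factors of NK and T cell differentiation gave 0 calls with DT among 25 tested in LN and in lung. The smallest p belonged to Tcf7 (-1.33, adjusted p = 0.211), Lef1 (-1.66, adjusted p = 0.297) and Maf (1.16, adjusted p = 0.309) in LN and to Stat5a (1.00, adjusted p = 0.11), Nr4a1 (-0.93, adjusted p = 0.31) and Eomes (-0.57, adjusted p = 0.312) in lung. Between tissues the orphan nuclear receptors of the NR4A family, which are induced on receptor signalling, differed most. Nr4a1 averaged 1587 ± 439.8 CPM in lung PBS and 41.2 ± 10.5 CPM in LN PBS (5.27, adjusted p = 4.73e-06), Nr4a2 1389 ± 271 and 12.9 ± 4.30 CPM (6.75, adjusted p = 4.73e-06) and Nr4a3 147 ± 35.3 and 11.3 ± 4.16 CPM (3.70, adjusted p = 8.42e-05). They were also higher in lung DT, at 5.06, 6.33 and 4.52 (adjusted p = 7.03e-06, 5.61e-06 and 1.25e-05). Lungs, unlike LN, were digested with Liberase at 37 °C per the labels, so tissue and digestion cannot be told apart. Irf8 (2.34, adjusted p = 4.28e-04) and Bhlhe40 (2.33, adjusted p = 8.41e-04) were higher in lung PBS and Tcf7 (-2.99, adjusted p = 3.65e-04) was lower. In lung DT the same directions were called for Irf8 (1.32, adjusted p = 0.0179), Bhlhe40 (1.76, adjusted p = 0.00581) and Tcf7 (-2.23, adjusted p = 0.00313), together with Stat5a (1.46, adjusted p = 0.00243) and Ikzf2 (-2.25, adjusted p = 0.0312).

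Among 18 signalling proteins of these receptors 0 were called with DT in either tissue. Ptpn6, which encodes the phosphatase SHP-1, averaged 376 ± 128 CPM in LN DT and 545 ± 98.3 CPM in LN PBS (adjusted p = 0.46), and 251 ± 51.4 CPM in lung DT and 333 ± 47.7 CPM in lung PBS (adjusted p = 0.497). Sh2d1a, which encodes the adaptor SAP, had 0.78 in LN (adjusted p = 0.433), and the kinase gene Lck had -0.60 in lung (adjusted p = 0.32). Pik3r1, a regulatory subunit of phosphoinositide 3-kinase, was higher in lung PBS (1.75, adjusted p = 7.39e-05) and lung DT (1.33, adjusted p = 7.85e-04). Trat1, a T cell receptor adaptor, had 0 counts in lung DT and 124 in LN DT, at least 40-fold lower against a floor of 3 counts over the group (adjusted p = 0.0154); lung PBS held 30 counts (adjusted p = 0.165 for lung DT against lung PBS) and LN DT against LN PBS did not pass (adjusted p = 0.391).

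The genes whose pattern over the 16 libraries was most like that of a member were sought among 8429 protein-coding genes with a mean of at least 10 CPM, by the root mean square difference of mean-centred log2 values. For Cd96 they were Ctse and Car2, at 0.24 and 0.25, where the spread of Cd96 itself was 0.64. For Cd226 they were Sec23a (0.24) and Vbp1 (0.30), against its own spread of 0.58. For Tigit they were Bhlhe41 and Tmx3, both at 0.64 against a spread of 0.95, and for Crtam Coa4 (0.72) and Dph5 (0.76) against 1.67. For Lag3 they were Fam19a3 (0.66) and Itgb3 (0.74) against 1.11. Ctla4, Pdcd1 and Havcr2 had no gene nearer than 0.99, and their nearest were Chek1 and Ccnj, Nek6 and Snx8, and Pros1 and Gngt2. All points of these measures share their library and its scaling.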

How the data were processed

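The authors deposited raw read counts per Ensembl gene for 16 Smart-seq2 libraries. The submitters' processing notes name HISAT2, HTSeq and GRCm38; versions and strand settings were not in the sources at hand. Of 49671 genes, filterByExpr of edgeR 4.0.16 (R 4.3.3; minimum count 10, minimum total 15) kept 13940. These were scaled by TMM and fitted by the robust quasi-likelihood method as 4 group means with 12 residual degrees of freedom. A gene is called where its Benjamini-Hochberg adjusted p, taken over the 13940 genes, is under 0.05. Summed marker levels were tested by exact two-sided permutation. Exon lengths come from GENCODE M21. Upstream sequences come from RefSeq (GRCm38.p6), where 5 of the 8 members were matched; no sequence of Cd226 is used here, and Crtam and Lag3 are named only. Ctla4 overlaps a ribosomal protein pseudogene, so reads there may be shared.

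The members and lists were chosen with earlier results of these data known. Named are the 8 members, each list's called genes and its 3 of smallest p in each DT comparison, and the 2 genes most like each member by log2(CPM + 0.5). The design text calls the replicates biological. Deviations from group means of same-numbered LN DT and lung DT libraries correlated at 0.216 to 0.494 in all 4 pairs. This was read as pairing, from the data and not the labels. It was used only in the alternative with the replicate number as a block within a treatment. The fit of 4 group means left it out. Differently numbered LN DT and lung DT libraries correlated at -0.350 to 0.258, so the ranges overlap and the pairing is uncertain. Same-numbered LN PBS and LN DT libraries, from differently treated mice, correlated at 0.0349 to 0.184. Same-numbered LN PBS and lung PBS libraries were not read as pairs (-0.0289 to 0.263), though the block within a treatment covered them as well. Alternatives were median-ratio size factors, no gene filter, DESeq2 1.42.0, only the groups compared, the replicate number as a block, the mitochondrial share as a covariate, and libraries left out.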

Additional observations from a re-analysis of the deposited data

Results flagged for a closer look

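In 4 cases a library stood far from the others of its group, judged by the gap to its nearest neighbour over the group's range, which chance gives in about 1 in 20 groups. Crtam had 508 CPM in LN DT replicate 1, against 100.1 to 139 CPM in the other LN DT libraries. Ctla4 had 42.5 CPM in the same library, against 9.77 to 13.4 CPM. Havcr2 had 2.97 CPM in LN PBS replicate 3, against 0 to 0.121 CPM in the others. Pdcd1 had 3.61 CPM in lung PBS replicate 2, against 0 to 0.496 CPM in the others. The values of Havcr2 and Pdcd1 rest on few counts.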

How the results depend on the processing

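Of 40 member results, 28 never changed sign, and 883 of 933 alternative values kept both the sign and the side of the threshold; for the changes below the cause was not tested. Genes called with DT in LN were 9, against 23 with no gene filter, 1 with the mitochondrial share as a covariate, 41 with only the groups compared, 24 without both DT libraries numbered 1, 350 by DESeq2, and 0 (without LN PBS replicate 3 or 4) to 122 (without LN DT replicate 4) with 1 library left out. In lung there were 15, against 1 with the mitochondrial share, 0 with only the groups compared, 474 without both DT libraries numbered 1, 531 by DESeq2, and 1 (without lung PBS replicate 1 or 2) to 129 (without lung DT replicate 4) with 1 library left out. For the difference between the DT effects there was 1, against 0 with either replicate block, 35 by DESeq2, and 0 to 3 with 1 library left out. Between lung PBS and LN PBS there were 503, against 1425 with only the groups compared, 1362 without both DT libraries numbered 1, 1298 by DESeq2, 849 with the replicate block within a treatment, and 268 to 992 (without lung DT replicate 1) with 1 library left out. Between lung DT and LN DT there were 941, against 322 with only the groups compared, 1976 by DESeq2, 1421 with the replicate block within a treatment, and 471 (without LN DT replicate 3) to 1554 (without lung DT replicate 1) with 1 library left out. With the replicate number as a block over all groups the counts were 7, 13, 0, 538 and 889 in the same order. The replicate block within a treatment was chosen after seeing the data.

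Members called in LN were 0, and 1 by DESeq2; in lung and for the difference of effects they were 0 under every alternative. Between lung PBS and LN PBS there was 1 member, against 0 with no gene filter, 2 with the replicate block within a treatment (Crtam, and Tigit at an adjusted p of 0.0283, although the PBS libraries did not pair) and 0 to 1 with 1 library left out. Between lung DT and LN DT there was 1, against 0 with no gene filter or only the groups compared, 2 without both DT libraries numbered 1, 2 by DESeq2, 2 with the replicate block within a treatment, and 0 to 1 with 1 library left out.

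Uncalled log2 fold changes that turned sign were Crtam in lung with DT (-0.18 with the replicate block, -0.84 with the mitochondrial share, -0.89 without both DT libraries numbered 1, -0.88 to 0.40 with 1 library left out), Ctla4 in lung with DT (-0.15 with the mitochondrial share), and Pdcd1 between lung DT and LN DT (-0.23 with the replicate block, -0.26 with the mitochondrial share, -0.051 with the block within a treatment, -0.53 to 0.75 with 1 library left out). With 1 library left out, ranges that cross 0 were -1.06 to 0.11 for Crtam and -0.31 to 1.94 for Pdcd1 in LN, and -0.074 to 0.44 for Cd96, -1.09 to 0.69 for Crtam, -4.03 to 0.15 for Pdcd1 and -0.71 to 4.22 for Havcr2 in the difference of effects. They were also -3.69 to 0.44 for Pdcd1 between lung PBS and LN PBS, and -0.44 to 0.33 for Tigit and -0.70 to 0.14 for Cd226 between lung DT and LN DT. Depth limits Pdcd1 and Havcr2, which had no counts in 6 and 3 libraries.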
